A study of Rattus norvegicus with 6 samples.

Results

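The miRNA genes described here are Mir15b, Mir16, Mir195, Mir497 and Mir322, the rat miRNAs that share the miR-16 seed. They were taken from the small RNA table by symbol, which gave 5 of 32883 listed genes and 5 of 452 miRNA genes, each with 1 row. All 5 had reads in every library and were among the 4292 genes tested, which averaged 5 or more normalized reads. A normalized read is a read count divided by the size factor of its library, so values can be compared between lines.

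The libraries came from clonal INS-1(832/13)::mCherry cells, a glucose-responsive rat insulinoma line that carries an insulin transgene tagged with mCherry. All 6 lines lacked the imprinted Prader-Willi syndrome (PWS) domain on the silent maternal allele, an edit inherited from line 5-9. Control lines 5-9, 2 and 16 still had the active paternal domain, whereas PWS lines 3, 19-1 and 19-4 had lost it too. No agent was added, and every line was kept at 7.5 mM glucose and gave 1 library. Lines 19-1 and 19-4 are subclones of a single edited line. The p-values therefore measure the spread between clonal lines of 1 cell line, with fewer independent edits than lines.

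A miRNA pairs with messenger RNAs mainly through its seed, bases 2 to 8 counted from the 5′ end, and lowers their translation and stability. miRNAs with 1 seed share most of their predicted targets. The miR-16 seed is best known for restraining cell division, through targets such as D-type and E-type cyclins, Cdk6, Cdc25a, Wee1 and Chek1, and for limiting Bcl2. In heart and other dividing tissues, miR-195 and miR-497 accumulate as cells leave the cell cycle, and miR-322 and miR-503 (miR-424 and miR-503 in human) are linked to differentiation.

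The shared seed is what makes these genes a family. The mature 5′ arms are printed below from RefSeq for assembly GRCr8, in which all 5 members were matched by name. Capitals mark bases 2 to 8, and miR-503 is added as the relative made beside miR-322.
rno-miR-16-5p: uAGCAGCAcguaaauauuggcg
rno-miR-195-5p: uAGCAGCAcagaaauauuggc
rno-miR-15b-5p: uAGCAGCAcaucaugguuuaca
rno-miR-497-5p: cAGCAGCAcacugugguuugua
rno-miR-322-5p: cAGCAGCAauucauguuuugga
rno-miR-503-5p: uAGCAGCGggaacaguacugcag

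Of the 724 mature rat miRNAs in that table, 5 carried the seed AGCAGCA, and they were the 5 members. miR-503 differed from it at the last seed base (A8G against miR-15b, positions counted from the 5′ end). Over the whole arm, seed included, the genomic neighbours were not the closest in sequence. miR-16 and miR-195 were identical at 19 of 21 compared positions and differed by G10A and U11G. miR-15b, which lies beside miR-16 in the genome, matched it at 14 of 22 positions and matched both miR-497 and miR-322 at 16 of 22. miR-497 and miR-322 matched each other at 15 of 22. miR-195 and its neighbour miR-497 matched at 12 of 21.

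In the same assembly the members lie at 3 places. Mir15b and Mir16 are adjacent on chromosome 2 inside Smc4, which encodes a condensin subunit, with 52 bases between them. Mir497 and Mir195 lie on chromosome 10 with 256 bases between them. Mir322 and Mir503 lie on chromosome X with 221 bases between them, close to Mir351, Mir542 and Mir450 genes. The deposited table was made on Rnor_6.0, so no coordinates are given. Mir15a, Mir16-1 and Mir16-2 were looked for by symbol and had no row, and where a read from such a copy would be counted is not known.

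The libraries held between 7373691 and 16480475 recovered reads. As a check of the genotype labels, 36 Snord116 snoRNA rows of the PWS domain summed to between 5557 and 8804 normalized reads in control lines and to between 1.78 and 3.96 in PWS lines. The labelled cell type was checked on 6 β-cell markers, all with reads, which summed to between 1901548 and 3329417 normalized reads in control lines and between 2048276 and 2842609 in PWS lines. These sums are nearly all Mir375, Mir7a1 and Mir7a2. Of the hormone rows, which are messenger RNA fragments, Ins1 had 194 ± 83.2 normalized reads in control and 125 ± 51.6 in PWS lines (SD, n = 3 each; log2 fold change -0.61, limma-trend adjusted p = 0.860), and the fold change ran from -0.93 (without line 3) to -0.29 (without line 16). Ins2 was at 22.7, 10.5 and 30.1 in control lines 5-9, 2 and 16 and at 16.0, 6.30 and 0 in PWS lines 3, 19-1 and 19-4 (log2 fold change -2.03, limma-trend adjusted p = 0.727). The groups overlapped for both. Ins2 passed the threshold with no filter on low values (limma-trend adjusted p = 0.013) and without line 3 (0.055), and its log2 fold change without line 19-4 was -0.87. Their part in the results was not tested. Markers of other cell types were low: the highest sums in any line were 77.8 for blood (3 of 4 listed genes with a row), 35.6 for endothelium (1 of 2), 48.8 for mesenchyme (2 of 4, with Mir145 at 0) and 2.61 for muscle (2 of 5, with Mir133b at 0). The mesenchymal sum was 13.1 to 39.4 in control lines and 35.7 to 48.8 in PWS lines, and its part in the results was not tested.

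The order of the levels was the same in all 6 lines, namely Mir16, Mir15b, Mir195, Mir497 and Mir322. Levels are normalized reads per gene with both arms of a hairpin summed, and the 5′ arms compared are 21 or 22 bases long. Mir16 ranked 3 among miRNA genes by control mean, directly below Mir7a2 and above Mir375, both abundant in β-cells. Mir15b ranked 89, Mir195 103, Mir497 135 and Mir322 147.

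Mir16 measured 671204 normalized reads in control line 5-9, 859473 in line 2 and 653033 in line 16. In PWS lines 3, 19-1 and 19-4 it measured 650941, 789242 and 828869. The highest value was a control line and the lowest a PWS line, and the groups overlapped. The means were 727903 ± 114304 in control and 756351 ± 93413 in PWS lines (SD, n = 3 each). The log2 fold change, PWS minus control, was 0.059 (SE 0.19, 95% interval -0.35 to 0.47, limma-trend adjusted p = 0.973).

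Mir15b, encoded beside Mir16, was far lower, at 5101, 3845 and 3438 normalized reads in control lines 5-9, 2 and 16. The PWS lines 3, 19-1 and 19-4 held 3902, 3967 and 2012. Line 5-9 was highest and line 19-4 lowest, while the other PWS lines lay within the control range. The means were 4128 ± 867 and 3294 ± 1110.5 (SD, n = 3 each), and the log2 fold change was -0.37 (SE 0.28, 95% interval -0.96 to 0.22, limma-trend adjusted p = 0.882). With each line left out in turn it ran from -0.54 (without line 19-1; -0.53 without line 3) to -0.049 (without line 19-4), and it was -0.21 without control line 5-9.

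Mir195, the close sequence relative of Mir16, measured 1889, 2317 and 1404 normalized reads in control lines 5-9, 2 and 16, and 1903, 2033 and 1202 in PWS lines 3, 19-1 and 19-4. Lines 16 and 19-4 were low within their own genotype, and the groups overlapped. The log2 fold change was -0.13 (SE 0.27, 95% interval -0.71 to 0.44, limma-trend adjusted p = 0.95).

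Mir497, its neighbour, measured 510.2, 544 and 431 normalized reads in the control lines and 554, 528 and 344 in the PWS lines, in the same order of lines. Lines 16 and 19-4 were again the lowest of their groups. The log2 fold change was -0.082 (SE 0.27, 95% interval -0.65 to 0.49, limma-trend adjusted p = 0.973).

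Mir322 was the lowest member, at 385, 275 and 337 normalized reads in the control lines and 333, 353 and 249 in the PWS lines. Here line 2 was the lowest control line, and the groups overlapped once more. The log2 fold change was -0.095 (SE 0.27, 95% interval -0.67 to 0.48, limma-trend adjusted p = 0.966).

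**Figure D1:**
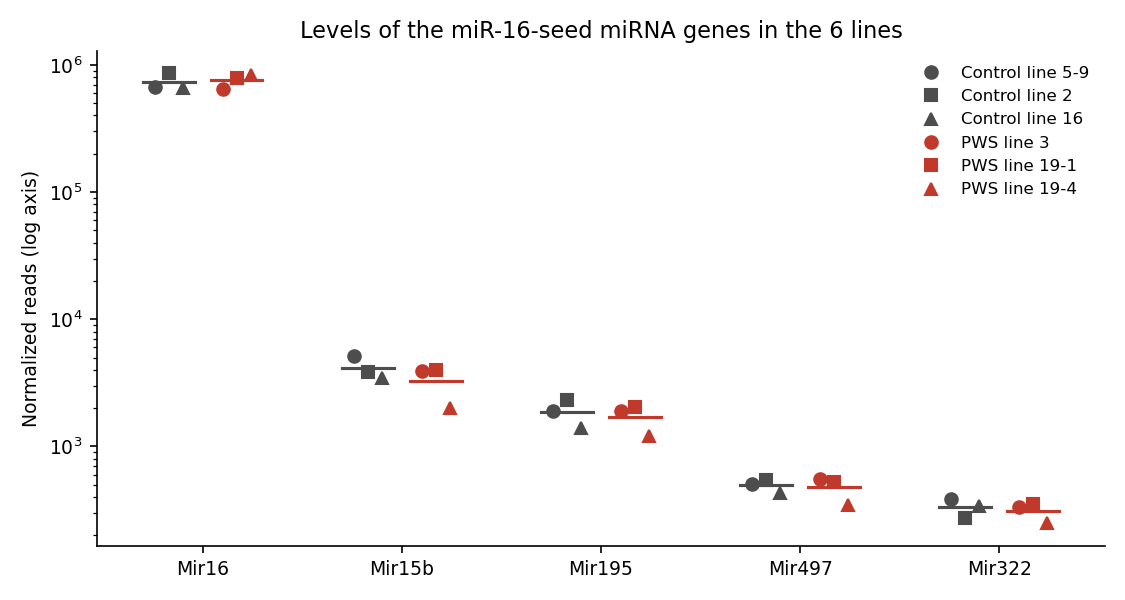
Normalized reads (log axis) of the 5 family genes in the 3 control lines (grey) and the 3 PWS lines (red); points are lines and horizontal bars are group means. Mir16 lies between 650941 and 859473 in every line, the other 4 genes lie at or under 5101 reads, and the groups overlap for each gene.

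The ranges of neighbours in this order were separate for Mir16 and Mir15b and for Mir195 and Mir497. The lowest Mir15b value (2012) lay under the highest Mir195 value (2317), and the lowest Mir497 value (344) under the highest Mir322 value (385). Within each line, Mir15b exceeded Mir195 and Mir497 exceeded Mir322. The position of Mir322 depended on counting. The table lists a second row, Mir322-2, with 334 ± 38.9 normalized reads in control lines, and the ratio of Mir322-2 to Mir322 was between 0.916 and 1.09. Each of these rows had the same reads in both deposited tables, and how reads were divided between them is not known from the files. With both rows summed, a choice added after the values were seen, Mir322 exceeded Mir497 in 6 of 6 lines.

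None of the 5 members was called at an adjusted p under 0.1, where 1.28% of all tested genes and 2.75% of tested miRNA genes were called. At an unadjusted p under 0.05 the count was also 0 in limma-trend, edgeR quasi-likelihood, DESeq2 and limma-voom, beside 5.96%, 5.36%, 3.19% and 5.36% of all tested genes. The groups did not overlap for 0 of 5 members, beside 11.2% of all tested genes and 15.3% of tested miRNA genes. The median log2 fold change of the members was -0.095, with 4 of 5 below 0, beside -0.14 for the 255 tested miRNA genes, of which 176 were below 0, and 0.0048 for all tested genes. At the filter used, the intervals left room for a PWS level between 0.785 and 1.38 times control for Mir16. For Mir15b the limits were 0.513 and 1.16 times control. For Mir195, Mir497 and Mir322 the limits were 0.612 to 1.36, 0.635 to 1.40 and 0.629 to 1.39 times control.

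**Figure D2:**
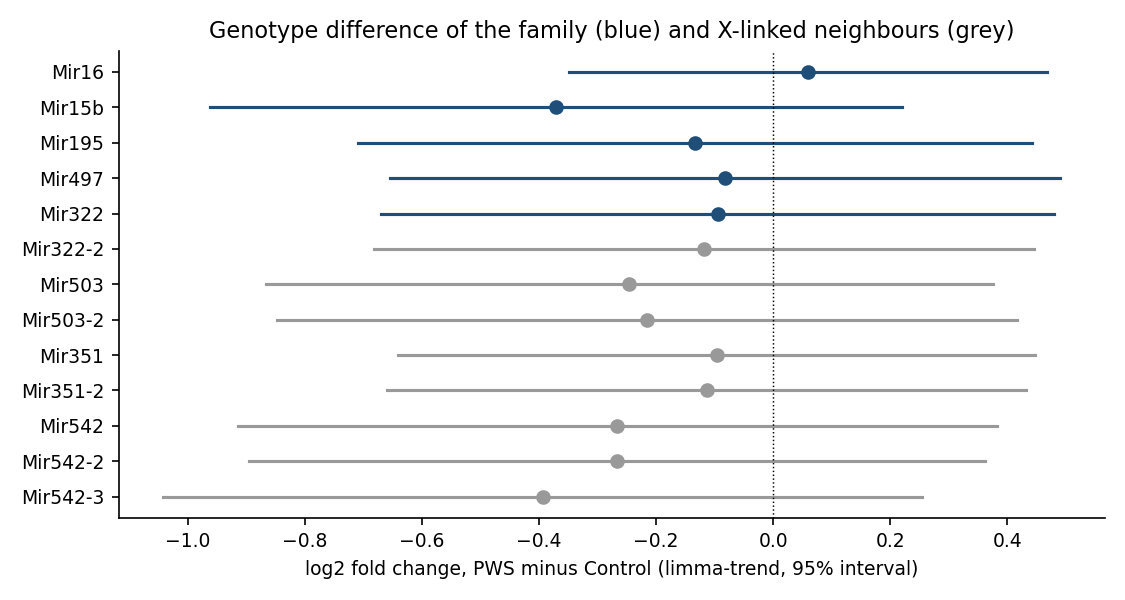
Log2 fold change, PWS minus control, with 95% intervals from limma-trend (n = 3 lines per group), for the 5 family genes (blue) and genes of the X-linked neighbourhood (grey). Every interval crosses 0, and at the filter used the interval of Mir16 (-0.35 to 0.47) is the narrowest of the 5 family genes. With a filter at a mean of 1 or no filter, the SE of Mir16 (0.32 and 0.42) was the largest of the 5.

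The family as a whole was nearly all Mir16. The 5 genes summed to 679089, 866452 and 658642 normalized reads in control lines 5-9, 2 and 16 and to 657632, 796123 and 832676 in PWS lines 3, 19-1 and 19-4. Mir16 made up 99.06 ± 0.193% of that sum in control and 99.22 ± 0.290% in PWS lines (SD, n = 3 each). The lowest share was in line 5-9 (98.8%, Wilson 95% interval 98.8% to 98.9%) and the highest in line 19-4 (99.5%, 99.53% to 99.56%). The group ranges of the sum overlapped.

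As a share of all miRNA reads, the family took 6.49%, 9.75% and 6.95% in control lines 5-9, 2 and 16, and 7.51%, 8.27% and 9.69% in PWS lines 3, 19-1 and 19-4. The Wilson 95% interval was 6.47% to 6.50% in line 5-9 and 9.73% to 9.77% in line 2, which covers counting error only. The group means were 7.73 ± 1.77% and 8.49 ± 1.11% (SD, n = 3 each). The PWS range lay inside the control range.

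With Mir16 left out, the other 4 genes summed to 7885, 6980 and 5609 normalized reads in the control lines and to 6691, 6881 and 3807 in the PWS lines. Line 19-4 stood lowest. Within this remainder, Mir15b made up 60.4 ± 4.87% in control and 56.3 ± 2.99% in PWS lines, and Mir195 made up 27.4 ± 5.05% and 29.9 ± 1.59%. Mir497 took 7.31 ± 0.732% and 8.33 ± 0.681%, and Mir322 took 4.94 ± 1.04% and 5.55 ± 0.866% (SD, n = 3 each).

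The members differed in how far they varied between lines. The SD of log2 normalized reads over the 6 lines was 0.18 for Mir16, 0.24 for Mir322, 0.27 for Mir497, 0.36 for Mir195 and 0.45 for Mir15b. Among the 174 miRNA genes that averaged 100 or more normalized reads, whose median was 0.32, Mir16 was at percentile 17.2 and Mir15b at percentile 76.4. These places hold for normalized reads: Mir16 spanned 1.32-fold on them and 1.51-fold as a share of all miRNA reads. SDs on that other scale were not taken. The places also rested on line 19-4. Without that line, the SD was 0.15 for Mir497, 0.18 for Mir322, 0.18 for Mir16 (percentile 35.1), 0.21 for Mir15b (percentile 43.7) and 0.27 for Mir195, beside a median of 0.24. In the library with the fewest reads of the gene, counting error alone gave a coefficient of variation of 0.126% for Mir16 and 7.27% for Mir322, and the values between lines were 12.8% and 15.7%. Variation from library preparation and culture was not measured apart from that between lines.

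The subclones 19-1 and 19-4 share their edit, yet they were not alike in this family. Line 19-4 held 0.507 times the Mir15b level of line 19-1, 0.592 times the Mir195 level, 0.652 times the Mir497 level and 0.707 times the Mir322 level. For Mir16 the ratio was 1.05. The median miRNA gene of the 174 had a ratio of 0.770, so low values in line 19-4 were common among miRNA genes and the Mir16 ratio lay at percentile 78.2. Line 19-4 was the lowest of the 6 lines for all 4 members other than Mir16, and it was above the 6-line mean for Mir16 (log2 deviation 0.17).

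**Figure D3:**
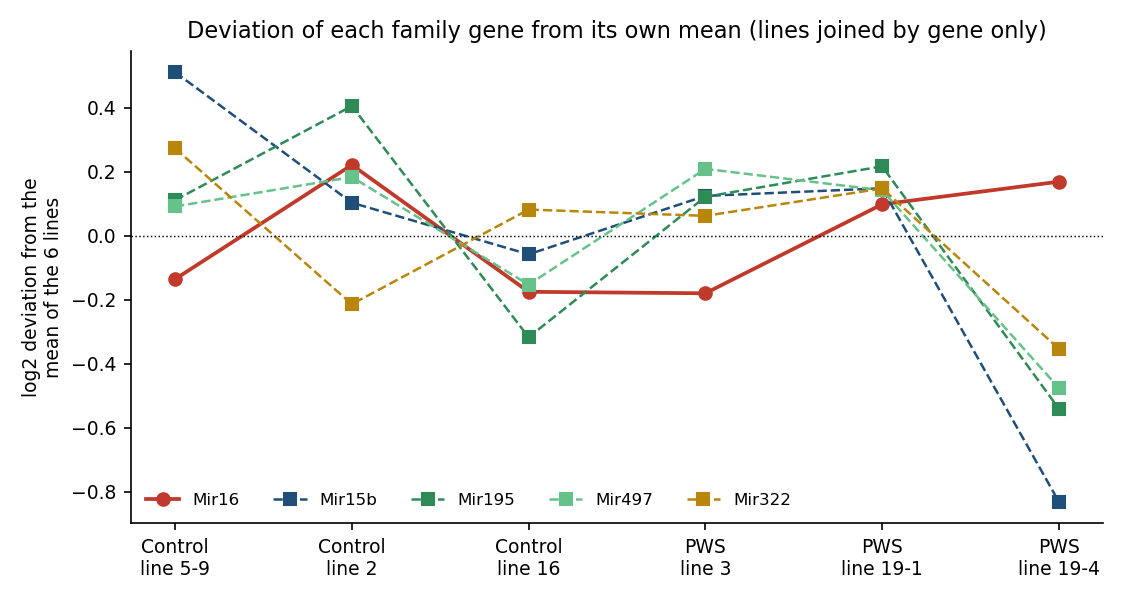
Log2 deviation of each family gene from its own mean over the 6 lines, by line; dashed and solid lines only join the points of a gene. In line 19-4, Mir15b, Mir195, Mir497 and Mir322 lie between -0.83 and -0.35, and Mir16 lies at 0.17.

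Mir497 over Mir195 was 0.270, 0.235 and 0.307 in control lines 5-9, 2 and 16 and 0.291, 0.260 and 0.286 in PWS lines 3, 19-1 and 19-4. The means were 0.271 ± 0.0360 and 0.279 ± 0.0167 (SD, n = 3 each). The highest line was 1.31 times the lowest, while Mir497 alone ranged over 1.61-fold and Mir195 over 1.93-fold. Without line 19-4 these spans were 1.31-fold, 1.29-fold and 1.65-fold, so the ratio then varied no less than Mir497.

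Mir15b over Mir16 was 0.00760, 0.00447 and 0.00527 in the control lines and 0.00599, 0.00503 and 0.00243 in the PWS lines. The means were 0.00578 ± 0.00163 and 0.00448 ± 0.00184 (SD, n = 3 each), and the highest line was 3.13 times the lowest. Mir15b alone ranged over 2.54-fold and Mir16 over 1.32-fold. Line 19-4 set the low end: without it the ratio spanned 1.70-fold, Mir15b 1.48-fold and Mir16 1.32-fold.

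The miR-503 rows over the miR-322 rows, with both rows of each summed, gave 0.591, 0.468 and 0.579 in the control lines and 0.544, 0.448 and 0.508 in the PWS lines. The means were 0.546 ± 0.0677 and 0.4999 ± 0.0488 (SD, n = 3 each), and the highest line was 1.32 times the lowest. For all 3 genomic pairs the groups overlapped.

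**Figure D4:**
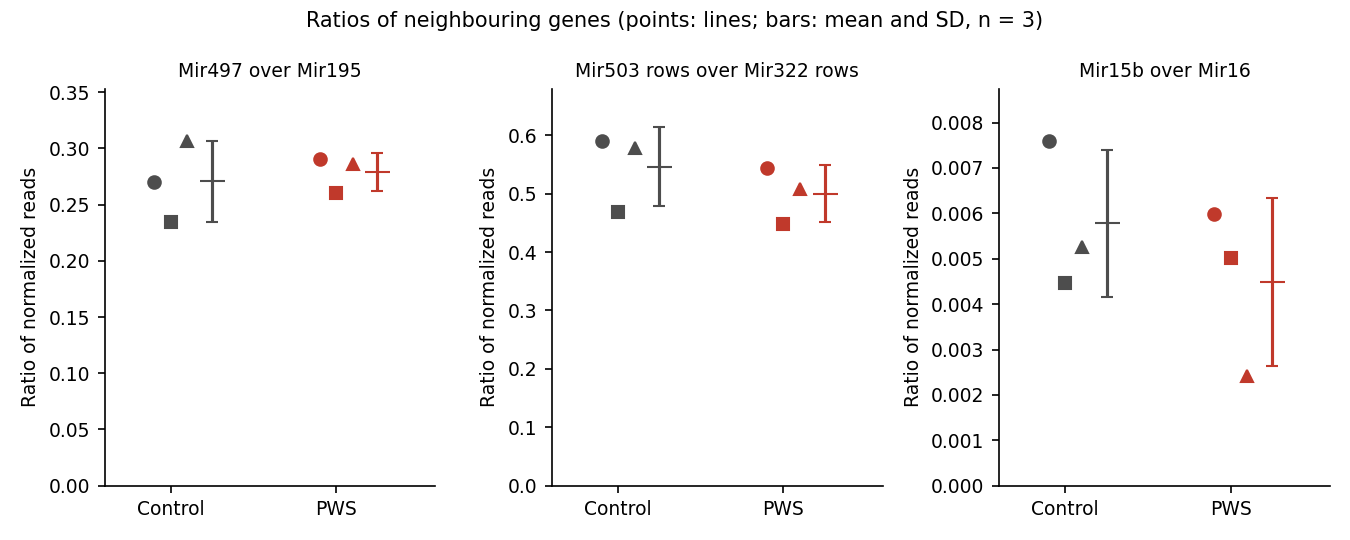
Ratios of normalized reads of genes that lie beside each other, by genotype; points are lines (circle, square and triangle are lines 5-9, 2 and 16 in control, and 3, 19-1 and 19-4 in PWS), and bars are means with SD (n = 3). Mir497 over Mir195 spans 1.31-fold across lines, the miR-503 rows over the miR-322 rows span 1.32-fold, and Mir15b over Mir16 spans 3.13-fold, or 1.70-fold without line 19-4.

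Likeness of pattern was measured as the root mean square difference of the log2 deviations over the 6 lines, among 173 other miRNA genes. The points share libraries and size factors, so it is a description. The gene most like Mir195 was Mir497 (0.125), followed by Mirlet7b (0.143) and Mir26b (0.171). For Mir497 the nearest genes were Mir671 (0.080), Mir26b (0.103) and Mirlet7d (0.117), with Mir195 at rank 6. Mir322 was nearest to Mir301a (0.076), Mir322-2 (0.080) and Mir425 (0.082). Mir16 was nearest to Mir672 (0.087), Mir190b (0.113) and Mir1306 (0.143), and Mir15b to Mir128-2 (0.145), Mir384 (0.150) and Mirlet7g (0.150). Mir15b stood at rank 130 for Mir16 (0.507), and Mir16 at rank 137 for Mir15b. Mir195, nearly identical to Mir16 in sequence, stood at rank 84 for Mir16 (0.347), close to the median gene (0.360). Without line 19-4, Mir15b stood at rank 81 for Mir16 (0.261, median 0.268), Mir195 at rank 27 (0.155), and Mir497 at rank 2 for Mir195. Without line 16 Mir497 was at rank 3 for Mir195. The rank of Mir195 for Mir497 ran from 3 (without line 2 or line 16) to 15 (without line 3). The gene nearest to Mir15b was another one in 5 of 6 omissions, and that nearest to Mir16 was Mirlet7a1 without line 19-4, so these neighbours depended on single lines.

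The level of Mir16 separated the shallower from the deeper libraries. The 3 shallowest libraries, lines 19-4, 2 and 19-1, held 789242 to 859473 normalized reads of Mir16, and the 3 deepest, lines 5-9, 16 and 3, held 650941 to 671204. Both sets hold both genotypes. The same separation was present when Mir16 was scaled to all miRNA reads or to all reads of the table. It was noticed after the values were seen, and it held for 7 of 174 miRNA genes (4.02%) on normalized reads, while 27 (15.5%) separated the opposite way. Mir15b, Mir195, Mir497 and Mir322 did not separate by depth. The part of depth in the spread of Mir16 was not tested.

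**Figure D5:**
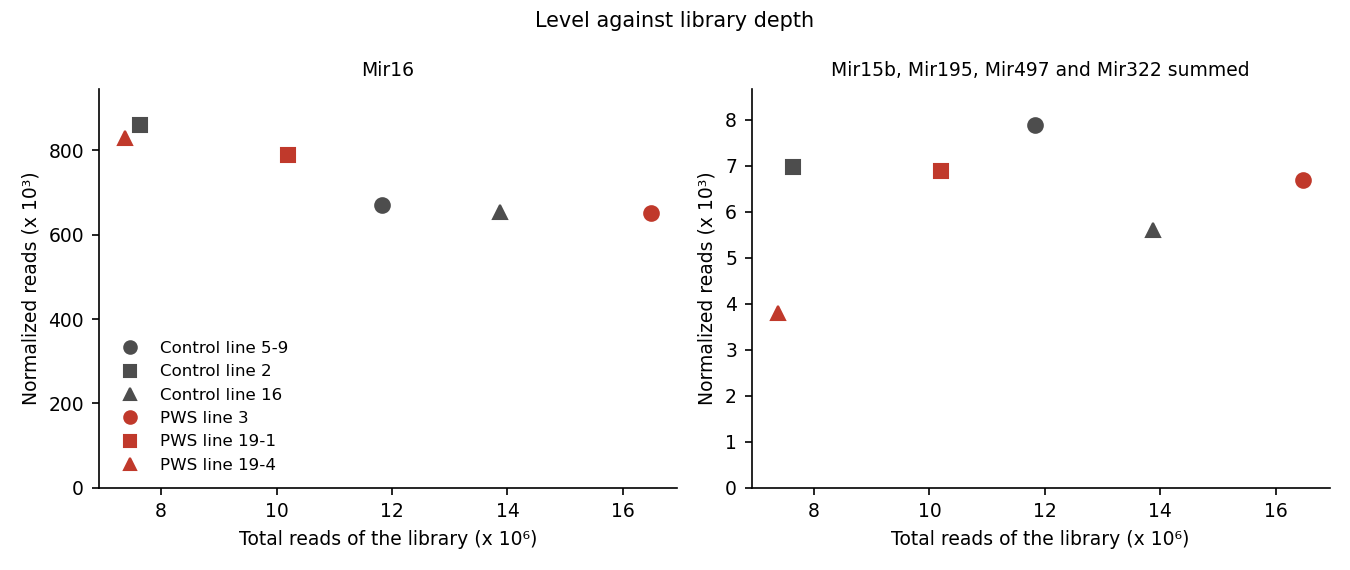
Normalized reads against the total reads of the library, for Mir16 (left) and for Mir15b, Mir195, Mir497 and Mir322 summed (right); each point is 1 line, grey for control and red for PWS. The 3 shallowest libraries lie above the 3 deepest for Mir16, and the summed other members show no such separation, with line 19-4 lowest at 3807 reads.

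The genes around Mir322 on chromosome X gave no called difference. Mir503, whose product shares 6 of 7 seed bases with the family, had 183 ± 46.6 normalized reads in control and 151 ± 17.2 in PWS lines (SD, n = 3 each; log2 fold change -0.25, SE 0.29, limma-trend adjusted p = 0.904). Mir351 had 333 ± 34.8 and 311 ± 27.6 (log2 fold change -0.096, limma-trend adjusted p = 0.961), and Mir542 had 105 ± 28.6 and 85.2 ± 6.34 (-0.27, limma-trend adjusted p = 0.904). Of 7 rows from the listed Mir351, Mir542 and Mir450 genes, 6 were tested and 0 were called, with a median log2 fold change of -0.19 and a range from -0.39 for Mir542-3 to 0.57 for Mir450a1. Mir450a1, the 1 tested row above 0, had 3.99 ± 1.39 normalized reads in control and 6.99 ± 4.45 in PWS lines, from 35 reads in all (SD, n = 3 each; limma-trend adjusted p = 0.898). These sizes depended on single lines: with each line left out in turn they ran from -0.47 (without line 2) to -0.093 (without line 5-9) for Mir503, from -0.48 to -0.079 (the same lines) for Mir542, from -0.19 (without line 2) to -0.036 (without line 19-4) for Mir351 and, over 5 of the 6 omissions, from 0.35 (without line 2) to 0.96 (without line 19-1) for Mir450a1. Without line 19-4, its highest line at 11.9 normalized reads, Mir450a1 averaged under 5 and was not tested. Of the 3 listed relatives with a row (Mir322-2, Mir503 and Mir503-2), 0 were called.

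The longer genes of this pathway are seen here only as fragments that entered small RNA libraries, so their reads are not messenger RNA levels. Of 8 listed host and neighbouring genes, 1 was tested and 0 were called. Smc4, the host of Mir15b and Mir16, had 3.84 ± 0.841 normalized reads in control and 2.79 ± 3.41 in PWS lines, from 20 reads in all, and was not tested. Of 16 listed cell-cycle targets and proliferation genes, 15 had a row, 4 were tested and 0 were called, with a median log2 fold change of -0.051 and a range from -0.073 for Mki67 to 0.49 for E2f7. Cdc25a, a phosphatase that activates cyclin-dependent kinases, had 32.1 ± 9.72 and 30.0 ± 5.62 (SD, n = 3 each; limma-trend adjusted p = 0.984), and Mki67, a marker of dividing cells, had 18.9 ± 11.1 and 16.3 ± 5.57 (limma-trend adjusted p = 0.984). E2f7, a repressor of cell-cycle genes, had 7.94 ± 4.93 and 10.5 ± 4.04 (limma-trend adjusted p = 0.898; log2 fold change -0.069 without line 2), and Wee1, a kinase that delays mitosis, had 6.81 ± 4.77 and 5.66 ± 3.29 (limma-trend adjusted p = 0.992). Whether members changed the level of any target cannot be read from these libraries.

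Of 12 listed genes that make or use miRNAs, 7 were tested and 0 were called, with a median log2 fold change of 0.12. Dicer1, the nuclease that cuts hairpins to mature miRNAs, had 16.9 ± 3.90 normalized reads in control and 12.1 ± 2.76 in PWS lines (SD, n = 3 each; log2 fold change -0.45, SE 0.37, limma-trend adjusted p = 0.887). Xpo5, which exports hairpins from the nucleus, had 5.37 ± 1.51 and 9.84 ± 5.94 (0.59, SE 0.53, limma-trend adjusted p = 0.889), and Ago2, which holds the mature miRNA on its target, had 7.68 ± 4.59 and 9.39 ± 1.96 (0.42, SE 0.49, limma-trend adjusted p = 0.904). These rest on 92, 51 and 56 reads in all. With each line left out in turn, the log2 fold change ran from -0.61 (without line 16) to -0.28 (without line 19-4) for Dicer1, from 0.23 (without line 19-4) to 1.18 (without line 19-1) for Xpo5 and from -0.12 (without line 2) to 0.78 (without line 16) for Ago2. Dgcr8, which helps Drosha cut primary transcripts, overlaps Mir1306, and its 3583 reads fell to 31 when reads in overlapping genes were left out. The members themselves had no such overlap: their reads were equal in both tables, with 4661314 for Mir16, 24448 for Mir15b, 11560 for Mir195, 3188 for Mir497 and 2123 for Mir322 over the 6 libraries.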

How the data were processed

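Small RNAs of 3 control and 3 PWS INS-1 lines were sequenced with unique molecular identifiers. Per the submitters' processing notes, the authors used UMI-tools 1.0.0, cutadapt 1.18, Bowtie2 2.3.4.2 and HTSeq 0.11.2 on Rnor_6.0; featureCounts and DESeq2 are also named there. The authors deposited 2 tables of signal values, gene counts divided by a DESeq2 size factor, in which reads in overlapping genes were counted for every gene (used here) or left out. The paper ties the first option to accurate counts of multi-copy snoRNAs and miRNAs as well. All values were whole multiples of 1 read within 0.001, so reads were recovered. Columns of the authors' own comparison (mean, log2 fold change, p-value and adjusted p) were not used.

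limma-trend (limma 3.58.1, R 4.3.3) took log2(normalized reads + 1) of genes averaging 5 or more, with genotype as the sole term, and a gene was called at a Benjamini-Hochberg adjusted p under 0.1. Fold changes are on this scale, and those of low genes depend on the pseudocount. miRNA genes were those with a symbol starting Mir. Sums, shares and ratios were given without a test. Named were the members, listed relatives, neighbours, hosts and targets, and the 3 miRNA genes most like each member. Members and lists were chosen with earlier results of these data known. edgeR 4.0.16 and DESeq2 1.42.0 on recovered reads were among the alternatives.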

Additional observations from a re-analysis of the deposited data

How the results depend on the processing

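The number of called genes was 55, from 41 to 66 under the other settings and from 44 to 58 when each line was left out, and 0 of 5 members were called under all 24 settings. Mir15b kept its direction in all 24, from -0.54 to -0.049 on the log2 scale when a line was left out, with adjusted p from 0.792 to 1.00. The log2 fold changes of the other members lay near 0 and changed sign. Scaled to all miRNA reads, Mir497 was 0.012, Cdc25a 0.028 and Mki67 0.019. Scaled to all reads of the table, Mir497 was 0.014, Mir322 0.00094, Cdc25a 0.030 and Mki67 0.020, and Cdc25a was 0.014 under limma-voom. Wee1 was 0.047 and 0.049 when scaled to miRNA reads and to table reads, and 0.020 under upper-quartile scaling. Among the settings that kept all lines, the lowest values were -0.62 for Wee1 and -0.27 for Mki67. With each line left out in turn, the values ran from -0.014 to 0.18 for Mir16, from -0.33 to 0.10 for Mir195, from -0.21 to 0.13 for Mir497, from -0.23 to 0.058 for Mir322, from -0.34 to 0.091 for Cdc25a, from -0.57 to 0.34 for Mki67, from -0.12 to 0.78 for Ago2, from -0.069 to 0.87 for E2f7 and from -0.77 to 0.35 for Wee1. Spread, ratio spans and likeness without each line were added after the data were seen. The cause of these sign changes was not tested.

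The replicate numbers of the lines were shared between groups, but the correlation of deviations over 1087 genes was 0.414, 0.218 and -0.0574 for the 3 numbers, so they were not taken as pairs. With the replicate block, 56 genes and 0 members were called, and Mir15b had an adjusted p of 0.800. The 95% intervals give the differences that these 3 lines per group leave possible.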
